A study of Mus musculus with 9 samples.

Results

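The genes described here are 10 angiogenic factors and endothelial receptors, chosen by name from the 35934 genes of the annotation: the ligands Vegfa, Vegfc, Adm, Angpt1 and Angpt2, the receptors Kdr, Flt1 and Tek, and the co-receptors Nrp1 and Eng. Whole uterus of C57BL/6 mice was measured by RNA sequencing in 9 libraries, 3 per group. All females were immature, at 25 days of age per the treatment protocol (the design text also gives 21 days), and all had been primed with progesterone (1 mg, once) and β-estradiol (10 mg/kg/day) over 3 days. The horns received 50 μl of unconditioned embryo culture medium (control), of medium pooled from 9 competent human embryos, or of medium pooled from 18 arresting human embryos (called arrested here). Whether each library was a different animal is not stated in the labels, so p-values measure only the spread among these libraries, some of which may be technical. Each conditioned medium was 1 pool, and medium without an embryo was injected.

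Vegfa encodes VEGF-A, the main growth factor of blood vessel endothelium; it signals through the receptor tyrosine kinase VEGFR2 (Kdr), while VEGFR1 (Flt1) binds it tightly and can act as a decoy, most of all in its soluble form. Angiopoietin 1 (Angpt1) activates and angiopoietin 2 (Angpt2) tunes the endothelial receptor TIE2 (Tek), which governs how stable a vessel is. Adrenomedullin (Adm) is a peptide that acts on vessels and lymphatics through Calcrl with a Ramp partner, neuropilin 1 (Nrp1) is shared by VEGF and class 3 semaphorins, and endoglin (Eng) is an endothelial co-receptor of the TGF-beta family. In the uterus these genes are known for the rise in vessel permeability and growth around implantation.

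In exon coverage, a measure that depends less on how reads were shared among transcripts, Vegfa was lower in all 3 libraries after competent embryo medium than in any control or arrested library, with a mean of 0.597 times that of controls. For competent below control alone, this held for 10.7% of all genes tested in exon coverage. The share of genes below both other groups was not computed. Adm was lower after competent embryo medium than in any control library, in both measures used, as were 8.13% of all genes tested in the annotated sum. The receptors and co-receptors overlapped between all groups. No gene of the 10 passed the threshold of an adjusted p of 0.05 in any of the 3 contrasts, beside 0.045% of all genes for competent minus control, 0.0525% for arrested minus control and 0.135% for arrested minus competent in summed FPKM, so these are differences in level that the test across all genes did not call.

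Levels are FPKM, fragment counts scaled to transcript length and library size, added up per gene from the annotated transcripts. By this sum Vegfa was listed at 0 in the third library of each group, although reads lay on its exons there. In those libraries its FPKM was given to transcripts that the authors' pipeline had assembled anew. A second measure is therefore given beside the sum: the read depth over the annotated exons of a gene from annotated and assembled transcripts, put on the FPKM scale of its library. This exon coverage was chosen after seeing the data. Of the 10 genes, 9 had a mean of at least 1 FPKM and were tested (Angpt1 was not, at a mean of 0.986), and 9 were tested in exon coverage (Flt1 was not, at a mean of 0.966).

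All 20 assembled Vegfa transcripts, over the 9 libraries, ran through intron 3 of the gene. Of the 14 annotated transcripts, 8 join exon 3 to exon 4 and 0 run through that intron. The borders of that intron are shown because they mark what separates the assembled from the annotated transcripts. Exon bases are in capitals and intron bases in lower case, read on the minus strand of chromosome 17 in NCBIM37 (the mm9 assembly).
Vegfa exon 3 to intron 3, chr17:46162256-46162335: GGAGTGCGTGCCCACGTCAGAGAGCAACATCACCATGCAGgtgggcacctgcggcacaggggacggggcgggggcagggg
Vegfa intron 3 to exon 4, chr17:46161430-46161509: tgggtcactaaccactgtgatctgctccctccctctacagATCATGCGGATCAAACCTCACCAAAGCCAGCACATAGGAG
The intron spans chr17:46161470-46162295, 826 bases, with GT at its first and AG at its last bases. RefSeq lists, beside the main start of Vegfa, a second start whose 300-base window matched NCBIM37 once, at chr17:46162063-46162362. Of that window, 67 bases lay in exon 3 and 233 in intron 3. Whether assembled transcripts began at that start was not tested.

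The promoters of Vegfa and Adm, whose competent libraries lay wholly below the controls in exon coverage (as did those of Angpt1), are shown for their sequence only, since no binding or chromatin data are part of this series. Both are the 250 bases before the RefSeq start in GRCm38.p6, with each match to GGGCGG (the core of an Sp1 box, on either strand) in capitals.
Vegfa promoter, chr17:46032378-46032627, minus strand: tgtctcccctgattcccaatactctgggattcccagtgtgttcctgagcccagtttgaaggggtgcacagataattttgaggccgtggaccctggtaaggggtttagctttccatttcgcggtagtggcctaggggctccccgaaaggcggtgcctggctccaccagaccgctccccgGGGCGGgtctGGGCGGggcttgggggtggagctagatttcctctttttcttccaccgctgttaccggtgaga
Adm promoter, chr7:110627407-110627656, plus strand: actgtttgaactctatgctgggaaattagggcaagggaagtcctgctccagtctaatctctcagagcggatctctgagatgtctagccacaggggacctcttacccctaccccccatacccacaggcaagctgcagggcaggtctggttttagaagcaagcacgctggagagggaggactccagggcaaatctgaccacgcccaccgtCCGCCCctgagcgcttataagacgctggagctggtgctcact
The table held a promoter for 8 of the 10 genes, and none for Angpt1 and Angpt2. GGGCGG was in 35.7% of all 32851 windows of 300 bases; the Flt1 window held 3 matches, the main Vegfa window and those of Vegfc and Kdr 2 each, those of Adm and Nrp1 1 each and those of Tek and Eng 0. ACGTG, 1 form of the core of the hypoxia response element, was searched on both strands too. ACGTG was in 19.6% of all windows and in none of the main windows of the 8 genes, and the second Vegfa window held 1. The other form of that core, GCGTG, was not searched. Its reverse complement, CACGC, can be read in the Adm sequence above, so these counts do not show that a window lacks the core. The matches printed do not overlap each other, and a motif missing from such a window does not bear on sites farther away.

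Vegfa (ENSMUSG00000023951, chr17:46153942-46169326 in NCBIM37) had the highest exon coverage of the 10 genes, at a mean of 15.6 over the 9 libraries. Its exon coverage was 18.5, 17.9 and 19.5 in controls 1 to 3, 12.7, 9.73 and 10.97 with competent embryo medium, and 13.2, 18.2 and 19.7 with arrested embryo medium. All 3 competent libraries lay below all others, and the arrested group spread from just above the highest competent library to the highest level of the 9 libraries. On the log2 scale the difference was -0.70 ± 0.16 for competent minus control (limma adjusted p = 0.662) and 0.56 ± 0.16 for arrested minus competent (adjusted p = 0.182), where ± is the SE. Arrested minus control was -0.14 ± 0.16 (adjusted p = 0.91). Adjusted p-values are from limma over all genes tested, here and throughout.

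Counting assembled transcripts in full gave Vegfa 22.4, 21.2 and 23.6 FPKM in controls, 15.6, 12.6 and 8.01 with competent and 21.2, 33.1 and 24.8 with arrested embryo medium. The competent group was again below both others without overlap, by -0.88 ± 0.24 from control (limma adjusted p = 0.721), and arrested exceeded competent by 1.09 ± 0.24 (adjusted p = 0.188). Of the 14261 genes tested on these values, 9.6% had competent libraries wholly below controls and 8.71% had arrested libraries wholly above competent ones, and 0.028 and 0.133% were called. The annotated sum alone gave 6.85, 5.31 and 0 FPKM in controls, 5.67, 4.55 and 0 with competent and 7.14, 14.5 and 0 with arrested embryo medium, and an SE of 1.247 on the log2 scale. That sum therefore carries almost no information on Vegfa. It was 0 in library 3 of each group, where assembled transcripts held all of the FPKM. Of the 14 annotated transcripts, 3 were above 0 in any library. Between 56.1 and 100% of Vegfa FPKM per library was assembled.

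Adm (ENSMUSG00000030790) encodes the vasodilator peptide adrenomedullin and has 1 annotated transcript (chr7:117771175-117773331 in NCBIM37). Its level was 6.93, 6.52 and 6.64 FPKM in controls, 5.13, 4.45 and 5.35 with competent and 5.25, 9.55 and 7.22 with arrested embryo medium. The competent libraries lay below the controls, and arrested library 1 lay among the competent ones. The authors' deposited intervals of single estimates overlapped across this gap, for example 5.46 to 8.40 FPKM in control library 1 and 4.19 to 6.07 in competent library 1. Competent minus control was -0.37 ± 0.21 (limma adjusted p = 0.954) and arrested minus competent 0.45 ± 0.21 (adjusted p = 0.492). In exon coverage only competent library 2 differed, at 5.96, and the differences were -0.25 ± 0.18 (adjusted p = 0.893) and 0.33 ± 0.18 (adjusted p = 0.417).

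Angpt1 (ENSMUSG00000022309, chr15:42256273-42508523), the TIE2 agonist made by cells around vessels, was the third of the 10 (gene positions here and below are in NCBIM37) with no overlap between competent and control libraries. Its exon coverage was 1.93, 2.02 and 2.20 in controls and 1.18, 1.52 and 1.251 with competent embryo medium. After arrested embryo medium it was 2.60, 4.23 and 0.778, so that this group held both the highest and the lowest library of the 9. Competent minus control was -0.40 ± 0.35 (limma adjusted p = 0.926). By the annotated sum the groups overlapped, at 1.09, 0.658 and 0.849 FPKM in controls, 0.172, 1.52 and 0.727 with competent and 1.12, 1.96 and 0.778 with arrested embryo medium.

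Thus 3 of 9 tested genes of the 10 (Vegfa, Adm and Angpt1) had competent libraries wholly below controls in exon coverage, where 10.7% of the 14028 genes tested did. In the annotated sum it was 1 of 9 (Adm), beside 8.13% of 13333 genes. Vegfa was the only 1 of the 9 with arrested libraries wholly above competent ones, as were 9.6% of all genes tested in exon coverage. None of the 10 separated arrested from control libraries in either measure, beside 9.55% of genes in exon coverage and 8.85% in the annotated sum. The genes were chosen with earlier results of these data in view, so these counts are a description.

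Angpt2 (ENSMUSG00000031465, chr8:18690263-18741562), the context-dependent TIE2 ligand released by endothelium, stood at 1.55, 1.24 and 2.54 in control, 1.42, 1.42 and 1.34 in competent and 1.37, 2.65 and 2.55 in arrested exon coverage. The competent libraries were close together and the others were spread, with overlap in every comparison. Competent minus control was -0.19 ± 0.24 and arrested minus competent 0.39 ± 0.24 (limma adjusted p = 0.952 and 0.487). Vegfc (ENSMUSG00000031520, chr8:55162886-55271808), the ligand of lymphatic growth that binds VEGFR3, had exon coverage of 2.66, 2.69 and 1.82 in controls, 1.78, 1.65 and 2.31 with competent and 2.62, 3.68 and 1.99 with arrested embryo medium. These groups overlapped as well, and the largest difference, arrested minus competent, was 0.35 ± 0.21 (adjusted p = 0.476).

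**Figure D1:**
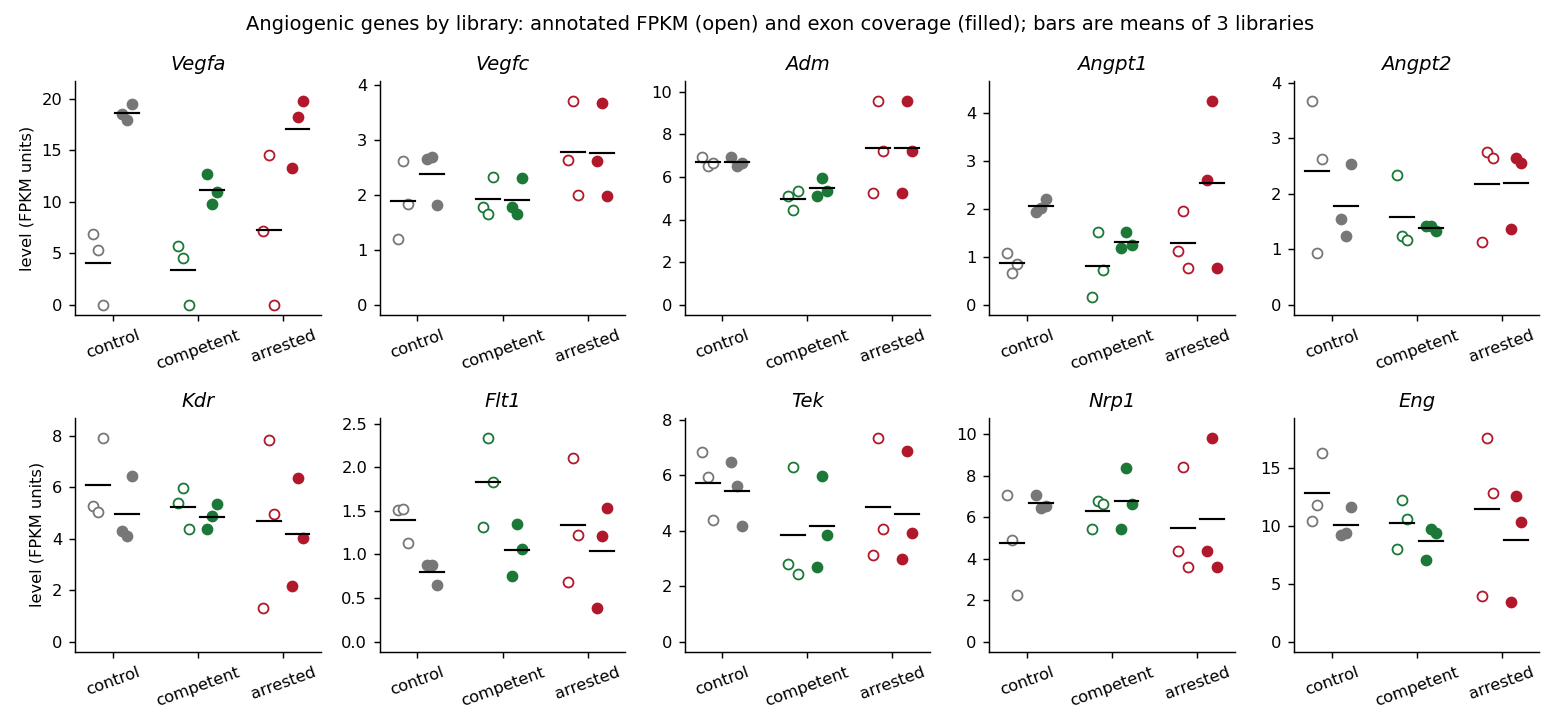
Level of each of the 10 genes by library, in FPKM units on linear axes, for control (grey), competent (green) and arrested (red) groups; open points are the annotated FPKM, filled points the exon coverage, and bars the mean of 3 libraries. The filled Vegfa points of the competent group (9.73 to 12.7) lie below all others, and the open Vegfa points include 1 library at 0 in each group.

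Kdr (ENSMUSG00000062960, chr5:76328852-76374483), the main signalling receptor of VEGF-A, stood at 5.26, 5.03 and 7.91 FPKM in controls, 5.37, 5.98 and 4.38 with competent and 1.32, 7.83 and 4.94 with arrested embryo medium. Arrested library 1 was the lowest of the 9 and arrested library 2 close to the highest, so that this group covered the range of the others. The differences were -0.16 ± 0.45 for competent minus control, -0.49 ± 0.45 for arrested minus control and -0.33 ± 0.45 for arrested minus competent, and none passed the threshold (limma adjusted p = 1, 0.914 and 0.846). In exon coverage competent and control means were 4.86 and 4.94, a log2 difference of -0.00 ± 0.29. Adding assembled transcripts put competent library 3 at 12.6 FPKM, while its exon coverage was 5.34.

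Flt1 (ENSMUSG00000029648, chr5:148373180-148537587), the VEGF-binding decoy receptor, was the lowest of the 10 genes per length in exon coverage. It stood at 1.51, 1.52 and 1.13 FPKM in controls, 1.31, 2.33 and 1.83 with competent and 0.683, 2.10 and 1.22 with arrested embryo medium, with overlap in every comparison. Competent minus control was 0.23 ± 0.31 (limma adjusted p = 0.972). Tek (ENSMUSG00000006386, chr4:94405980-94541667), the receptor of both angiopoietins, stood at 6.84, 5.95 and 4.39 FPKM in controls, 2.80, 6.31 and 2.44 with competent and 3.12, 7.34 and 4.05 with arrested embryo medium. Competent libraries 1 and 3 were the lowest of the 9 by this sum, and competent library 2 lay with the upper controls. In exon coverage competent library 3, at 3.84, lay above arrested library 1, at 2.99. Competent minus control was -0.54 ± 0.37 in the annotated sum and -0.35 ± 0.31 in exon coverage (adjusted p = 0.954 and 0.926).

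Nrp1 (ENSMUSG00000025810, chr8:130882973-131029362), the VEGF and semaphorin co-receptor, gave 7.08, 4.92 and 2.23 FPKM in controls, 5.42, 6.79 and 6.64 with competent and 4.38, 8.43 and 3.58 with arrested embryo medium. Control library 3 was the lowest by this sum, and not by exon coverage, where the controls were 7.08, 6.43 and 6.52. The difference competent minus control was 0.44 ± 0.39 in the annotated sum and 0.01 ± 0.30 in exon coverage (limma adjusted p = 0.955 and 1). Eng (ENSMUSG00000026814, chr2:32502115-32538189), the endothelial TGF-beta co-receptor, had the highest annotated FPKM of the 10, at 10.4, 11.8 and 16.3 in controls, 7.99, 12.2 and 10.6 with competent and 3.90, 17.5 and 12.8 with arrested embryo medium. Its lowest and highest libraries were both in the arrested group. Arrested minus control was -0.33 ± 0.46 and arrested minus competent -0.04 ± 0.46 (adjusted p = 0.939 and 0.994).

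**Figure D2:**
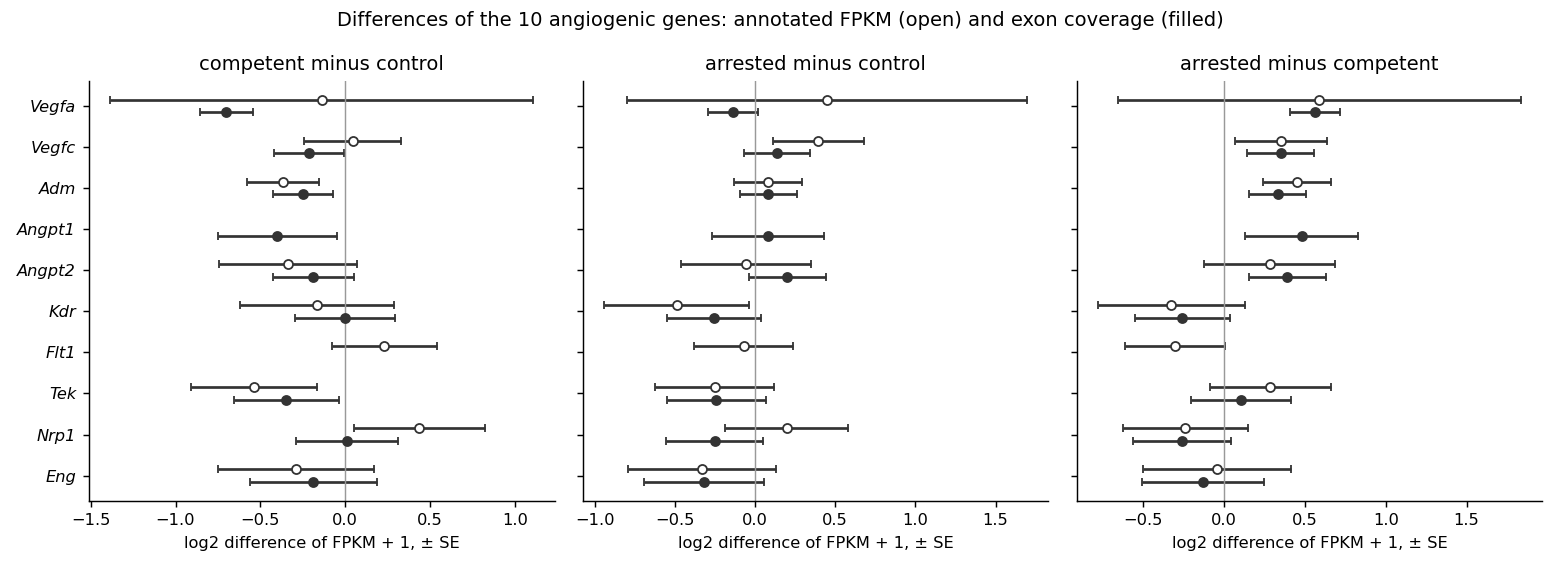
Log2 differences of FPKM + 1 (± SE, limma over 9 libraries) for the 10 genes in 3 contrasts, with annotated FPKM as open and exon coverage as filled points. The filled Vegfa points, at -0.70 for competent minus control and 0.56 for arrested minus competent, lie farthest from 0 in units of their SE; the open ones have an SE of 1.247. Angpt1 has no open and Flt1 no filled points, since their means were below 1.

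Over the 9 tested genes the median log2 difference in the annotated sum was -0.16 for competent minus control, with 3 above and 6 below 0, beside a median of -0.01 over all genes. It was -0.06 for arrested minus control and 0.28 for arrested minus competent. In exon coverage 8 of 9 were below 0 for competent minus control (median -0.21). Of all genes tested, 46.7% lay above 0 for competent minus control in exon coverage (median -0.014) and 48.1% in the annotated sum. The number of the 10 called was 0 in each contrast, by limma in either measure. At an unadjusted p under 0.05 it was 0 in the annotated sum; in exon coverage it was 1 (Vegfa) for competent minus control, 0 for arrested minus control and 1 (Vegfa) for arrested minus competent. Over all genes, calls were rare in exon coverage too, at 0.0143, 0.057 and 0.435% of 14028 genes for competent minus control, arrested minus control and arrested minus competent. Unadjusted p-values under 0.05 were found for 5.18, 5.27 and 10.9% of genes in the annotated sum and 6.32, 6.37 and 15.4% in exon coverage, in the same order. Both contrasts with control share the control libraries.

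Splicing after exon 5 decides which heparin-binding stretch VEGF-A carries: transcripts that join exon 5 to 8 encode the freely diffusing short form, those joining exon 5 to 7 the intermediate form and those with exon 6 the matrix-bound form. Transcripts joining exon 5 to 8 had 14.7, 13.3 and 8.31 FPKM in controls, 9.81, 4.02 and 8.01 with competent and 8.54, 13.8 and 13.8 with arrested embryo medium. Those joining exon 5 to 7 had 7.68, 7.92 and 15.3 FPKM in controls, 5.77, 4.76 and 0 with competent and 4.995, 4.81 and 10.98 with arrested embryo medium. The second class was lower in the competent than in the control libraries without overlap, whereas the first overlapped by competent library 1. The exon 5 to 6 junction was seen in competent library 2 alone, at 3.83 FPKM. Transcripts with none of these junctions held 7.66 FPKM in arrested library 1 and 14.5 in arrested library 2. Transcripts joining exon 5 to 8 made up 31.9 to 100% of the classified Vegfa FPKM per library, and both ends of that range were in the competent group. Most of this FPKM lies in the assembled transcripts that run through intron 3, so the junction alone does not show that the short protein is encoded. These values rest on how Cufflinks shared reads among few transcripts, and they were not tested.

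Flt1 has an annotated long form with a coding length of 3999 bases and a short one with 2064 bases, which lacks the 3' part of the long form; a transcript of this kind encodes the soluble decoy. The short form made up 26.7, 35.0 and 39.5% of Flt1 FPKM in controls, 39.0, 31.7 and 35.3% after competent and 52.9, 36.6 and 63.0% after arrested embryo medium. Arrested libraries 1 and 3 were above all controls, at low levels: the long form was at 0.322 FPKM in arrested library 1, and in arrested library 3 it was present only as an assembled transcript of 0.720 FPKM. By annotated transcripts alone, the long form's share was 66.3 ± 6.50% in control, 64.7 ± 3.63% in competent and 36.9 ± 32.9% in arrested libraries (mean ± SD, n = 3; exact permutation test over 3 groups, p = 0.104, adjusted p = 0.829 over 8 ratios and shares).

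**Figure D3:**
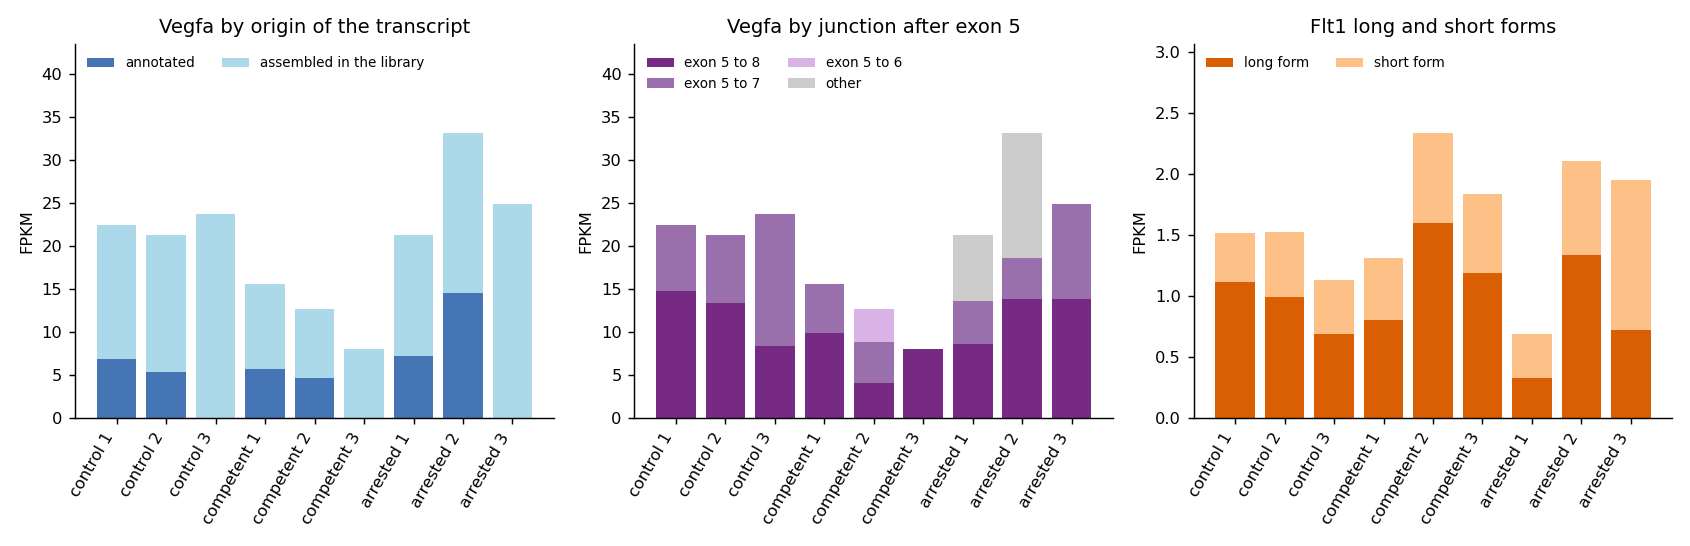
Stacked FPKM per library on linear axes from 0: Vegfa by origin of the transcript (annotated or assembled), Vegfa by the junction that follows exon 5, and Flt1 by long and short form. The third library of each group has no annotated Vegfa, competent library 3 has only the exon 5 to 8 class, and arrested library 3 has the largest short form share of Flt1 at 63.0%.

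Ratios set ligands against the receptors they act on. The log2 ratio of Vegfa to the sum of Flt1 and Kdr, in exon coverage, was 1.72 ± 0.22 in control, 0.91 ± 0.35 in competent and 1.82 ± 0.56 in arrested libraries (mean ± SD, n = 3; two-sided exact permutation test of F over 1680 assignments, p = 0.0821, adjusted p = 0.411 over 5 ratios). By library it was 1.84, 1.85 and 1.46 in control and 1.31, 0.65 and 0.78 in competent libraries, which do not overlap, while the arrested libraries reached from 1.26 to 2.38. The log2 ratio of Angpt2 to Angpt1 was -0.27 ± 0.46, 0.09 ± 0.19 and 0.04 ± 1.46 in the same order (exact permutation p = 0.914). Flt1 to Kdr stood at -2.60 ± 0.61, -2.24 ± 0.35 and -2.09 ± 0.60 (exact permutation p = 0.596). Adm to its receptor gene Calcrl stood at 0.25 ± 0.21, 0.43 ± 0.09 and 0.27 ± 0.18 (exact permutation p = 0.389). These ratios moved with the measure. In the annotated sum Angpt2 to Angpt1 stood at 1.30 ± 0.68, 1.38 ± 2.12 and 0.76 ± 0.90 (exact permutation p = 0.864). Adm to Calcrl stood there at 0.52 ± 0.26, 0.19 ± 0.15 and 0.65 ± 0.66 (exact permutation p = 0.429), with the competent mean lowest rather than highest. No ratio passed the threshold in this test; with 3 libraries against 3, the smallest p an exact test of a single pair of groups can give is 0.1.

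In whole uterus, fewer endothelial cells and less RNA per cell cannot be told apart. The summed FPKM of 20 endothelial markers, none of them among the 10 genes, was 312 to 335 in control, 266 to 287 in competent and 289 to 424 in arrested libraries. All 3 competent libraries lay below all others in this sum, which was made up mostly of Cd34 and Sox17 (means of 126 and 70.1 FPKM in control, 104 and 52.4 in competent libraries). Without those genes the sum of the other 18 was 124 to 130 in control, 97.9 to 136 in competent and 93.7 to 182 in arrested libraries, so that the groups overlapped. Sox17 was highest in arrested library 1, at 95.7 FPKM, where the sum of the other 18 was lowest, at 93.7. Whether Cd34 and Sox17 came from endothelium in this tissue was not tested, and both are part of the score below. Of the 19 markers tested, 8 lay above 0 for competent minus control, such as Sox18 at 0.43 ± 0.36 and Cldn5 at 0.22 ± 0.28, and 11 below, such as Pecam1 at -0.55 ± 0.48 and Cdh5 at -0.38 ± 0.38 (log2 ± SE in the annotated sum). An endothelial score, the mean log2(FPKM + 1) over the 19 markers tested, was 3.16 ± 0.02, 2.98 ± 0.17 and 3.17 ± 0.41 in control, competent and arrested libraries and did not separate the groups (exact permutation p = 0.621). In exon coverage it was 2.89 ± 0.04, 2.83 ± 0.18 and 2.91 ± 0.44 (exact permutation p = 0.961).

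Relative to this score, Vegfa exon coverage was 1.40 ± 0.10 in control, 0.76 ± 0.35 in competent and 1.247 ± 0.17 in arrested libraries (log2, mean ± SD, n = 3; exact permutation p = 0.0393, adjusted p = 0.196 over the 10 genes). Flt1 was highest relative to the score after competent embryo medium, at -1.80 ± 0.05 against -2.04 ± 0.07 in control and -1.92 ± 0.09 in arrested libraries (exact permutation p = 0.0179, adjusted p = 0.179). In the annotated sum Flt1 stood at -1.91 ± 0.12, -1.49 ± 0.13 and -1.99 ± 0.21 (exact permutation p = 0.025, adjusted p = 0.25). Flt1 was low, at a mean of 0.966 in exon coverage, and its annotated result moved with the setting. With a pseudocount of 0.1 the exact permutation p was 0.0929 (adjusted p = 0.839). With a score of 3 markers it was 0.0179 (adjusted p = 0.179). No gene of the 10 passed the threshold after adjustment in either measure.

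The correlation with the endothelial score passed the threshold for Flt1 and Eng only, and it moved with the libraries included. Over the 9 libraries, the exon coverage of Flt1 correlated with the score at Pearson r = 0.893 (exact permutation p = 0.00119, adjusted p = 0.00896 over 10 genes) and Spearman rho = 0.917 (permutation p = 0.00131, adjusted p = 0.0131). Without the 2 libraries farthest from the median score, arrested 1 and 3, r was 0.695. Eng gave r = 0.887 (exact permutation p = 0.00179, adjusted p = 0.00896) and rho = 0.65 (permutation p = 0.0666, adjusted p = 0.166), and r = 0.806 without those libraries. In the annotated sum Eng gave r = 0.846 (exact permutation p = 0.00187, adjusted p = 0.0187) and Flt1 r = 0.527 (exact permutation p = 0.144, adjusted p = 0.285); without the 2 libraries farthest from the median, competent 1 and arrested 1, these became 0.592 and -0.011. Without arrested 1 and 3, exon coverage gave Nrp1 r = 0.952, Tek 0.888 and Adm 0.825, above Flt1 and Eng, where all 9 libraries gave 0.353, 0.681 and 0.763. Vegfa had r = 0.380 in exon coverage (exact permutation p = 0.315, adjusted p = 0.440), and no gene but Flt1 and Eng passed the threshold after adjustment in either measure. The groups are pooled in these values, and groups of 3 libraries are too small for a value within each. In exon coverage the score varied most within the arrested group, at 2.40, 3.15 and 3.17 in libraries 1 to 3. The share of all genes that correlate as strongly with the score was not computed, so these results are a description.

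**Figure D4:**
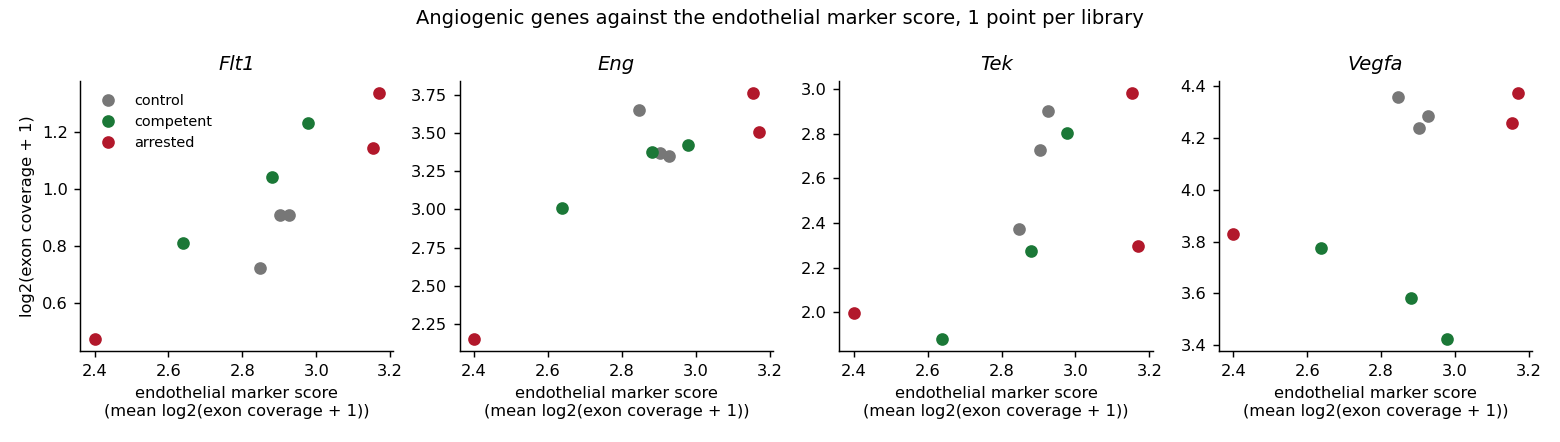
Log2 of exon coverage + 1 of Flt1, Eng, Tek and Vegfa against the endothelial marker score, 1 point per library, coloured by group. Flt1 and Eng climb with the score, with arrested library 1 at the low end of both; the 3 competent Vegfa points lie below all control points, 1 of them (competent library 1) at a score of 2.64, below the control range of 2.85 to 2.93.

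Genes most like each of the 10 were sought over the 9 libraries among up to 8905 genes with a mean of at least 5 in exon coverage and no 0, by Pearson r of log2 values; these are descriptions, with no test. Vegfa was most like Acp2 (r = 0.969), Fbxo38 (0.952) and Abcc5 (0.943). Adm was most like the matrix genes Postn (0.970) and Nid1 (0.967) and like Syde1 (0.968), and in the annotated sum like Dcn (0.966), decorin of stromal fibroblasts. Flt1 was most like Aspn (0.972), the endothelial transcription factor Sox18 (0.957) and Tjp1 (0.956). Kdr was closest to Sdc3 (0.984), Uaca (0.977) and Tspan9 (0.973), and Eng to Lmo2 (0.956), Frmd6 (0.945) and Nlgn2 (0.938).

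None of the genes of 8 lists around these pathways passed the threshold in any contrast in either measure. Apart from Tie1, the genes named below were picked from those of smallest p in their list, so groups without overlap are a description. In exon coverage 10.7% of all genes had competent wholly below control libraries, and 9.55% had arrested apart from control libraries in either direction. The share of genes lying beyond both other groups was not computed. Of the other VEGF genes, 5 of 5 were tested. Pgf, placental growth factor and a ligand of VEGFR1, had exon coverage of 2.004, 1.95 and 1.44 in control, 2.33, 3.71 and 4.09 in competent and 1.18, 4.31 and 3.38 in arrested libraries, and competent minus control was 0.63 ± 0.33 (limma adjusted p = 0.849). Of the angiopoietin and Tie genes 4 of 5 were tested, and Tie1, the orphan partner of TIE2, stood at 4.10, 4.80 and 4.38 in control, 3.41, 5.26 and 5.35 in competent and 1.75, 8.04 and 5.47 in arrested libraries. These groups overlapped, with arrested library 1 lowest and arrested library 2 highest, as for Eng.

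The adrenomedullin receptor genes had 5 of 6 members tested. Ramp3, which turns the Calcrl receptor into an adrenomedullin receptor, was at 78.5, 71.7 and 70.5 FPKM in control, 83.2, 67.9 and 72.4 in competent and 46.8, 61.0 and 66.8 in arrested libraries. All 3 arrested libraries were the lowest, and arrested minus competent was -0.36 ± 0.15 (limma adjusted p = 0.452). Calcrl had exon coverage of 6.72, 4.75 and 5.59 in control, 3.80, 4.13 and 4.21 in competent and 4.37, 8.93 and 5.27 in arrested libraries, so that its competent libraries lay below the controls. Competent minus control was -0.40 ± 0.22 for Calcrl (adjusted p = 0.881). In the annotated sum Calcrl overlapped, at 5.34, 3.69 and 5.16 FPKM in control and 4.06, 4.36 and 4.68 in competent libraries, with a difference of -0.08 ± 0.37.

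Id3, a target gene of endothelial BMP signalling that is also made by other cells, was the gene of the TGF-beta and BMP list (10 of 12 tested in exon coverage) with the smallest p. Its exon coverage was 21.2, 23.5 and 19.3 in control, 15.97, 19.8 and 15.2 in competent and 36.3, 24.7 and 35.4 in arrested libraries, without overlap between arrested and the others. Arrested minus competent was 0.87 ± 0.17 (limma adjusted p = 0.103). Of the semaphorins and plexins, 11 of 12 tested, Sema3f, a ligand of neuropilins that repels endothelium, stood at 17.7, 20.2 and 20.8 in control, 19.2, 17.4 and 18.3 in competent and 13.9, 13.5 and 14.7 in arrested libraries. The arrested libraries were below all others, by -0.45 ± 0.09 from control (adjusted p = 0.407). In the annotated sum Sema3f overlapped, at 4.87, 2.97 and 14.9 FPKM in control and 3.48, 11.9 and 8.89 in arrested libraries, and the difference turned to 0.21 ± 0.57 (adjusted p = 0.992). Nrarp, a Notch target of the 8 tested of 13 Notch, apelin and tip cell genes, was at 1.43, 1.66 and 1.61 in control, 1.63, 1.74 and 1.24 in competent and 2.03, 2.44 and 3.64 in arrested libraries (arrested minus competent 0.53 ± 0.19, adjusted p = 0.251).

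Vegfa and Adm are textbook hypoxia targets, and the other hypoxia target genes are given beside them. In exon coverage 12 of the 14 tested lay above 0 for competent minus control (median 0.19, beside -0.70 for Vegfa and -0.25 for Adm), and 10 of 14 below 0 for arrested minus competent (median -0.29). In the annotated sum the first count was 9 of 14 (median 0.17) and the second 10 of 14 again. Over all genes tested, 46.7% lay above 0 for competent minus control in exon coverage and 48.1% in the annotated sum, and 49.3 and 48.7% did for arrested minus competent. Egln3, an oxygen-sensing hydroxylase that marks HIF for degradation, was at 4.25, 3.94 and 4.82 in control, 6.75, 10.8 and 10.2 in competent and 4.63, 2.92 and 4.53 in arrested libraries. The competent libraries were above all others, by 0.92 ± 0.20 from control (limma adjusted p = 0.662), and arrested minus competent was -1.02 ± 0.20 (adjusted p = 0.103). Bnip3, a mitophagy receptor, had 14.6, 21.9 and 17.6 in arrested libraries against 8.16 to 10.1 in competent ones (0.86 ± 0.17, adjusted p = 0.111). Of the angiogenesis inhibitors (8 of 9 tested), Dusp6, a phosphatase that dampens ERK signalling, was at 23.5, 28.4 and 21.9 in competent and 14.04, 17.1 and 20.6 in arrested libraries (-0.50 ± 0.15, adjusted p = 0.2).

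**Figure D5:**
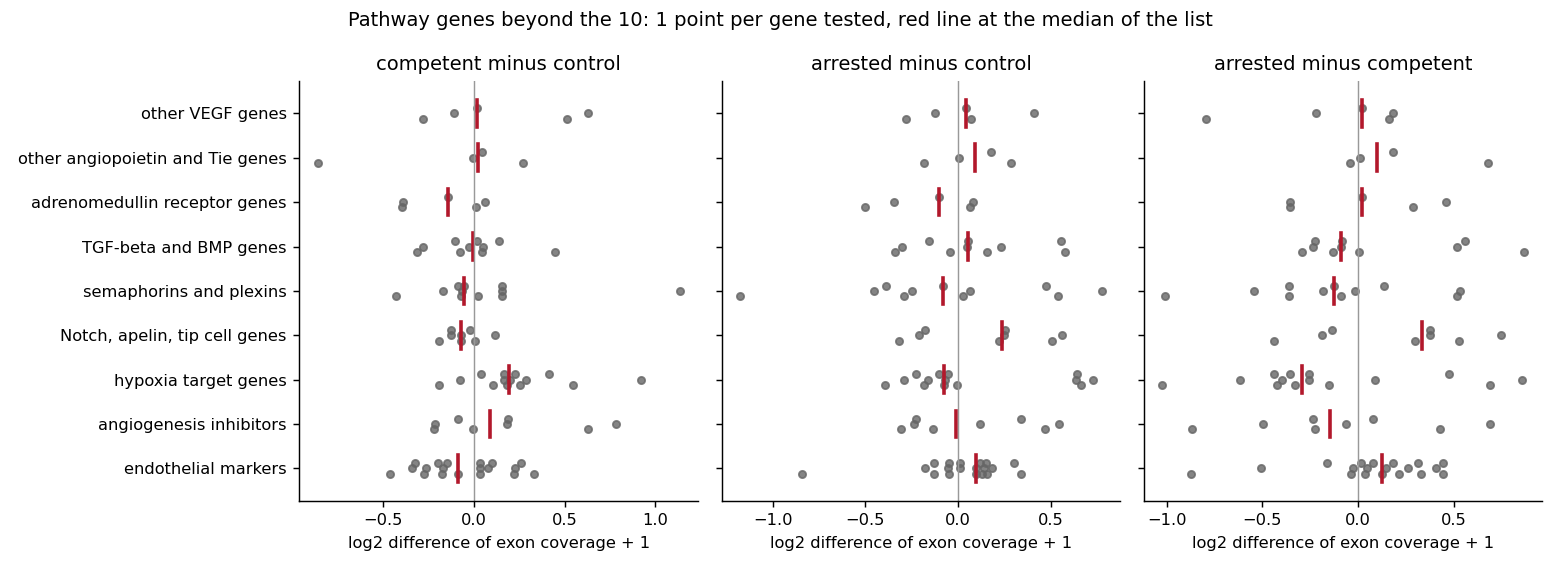
Log2 differences of exon coverage + 1 for the tested genes of 8 pathway lists and the endothelial markers in 3 contrasts, 1 point per gene, with the median of each list as a red line. The hypoxia target genes lie mostly above 0 for competent minus control (12 of 14, and 9 of 14 in the annotated sum) and mostly below 0 for arrested minus competent (10 of 14 in both), where 46.7 and 49.3% of all genes lay above 0 in exon coverage; no gene shown passed an adjusted p of 0.05.

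Depth in reads is unknown. Summed over transcripts, coverage per library lay between 1279 and 2360 Mb, and between 73.4 and 74.7% of annotated transcripts were listed at 0. With depth unknown, the number of reads behind a gene near 1 FPKM is not known and may be small. Uterine tissue was marked in every library by epithelial (2138 to 3179 summed FPKM of 9 markers), stromal (1218 to 2255 of 8) and smooth muscle genes (881 to 2781 of 8). Arrested library 2, the highest of the 9 for 6 of the 10 genes in both measures, also had the highest adipocyte sum, 1411 FPKM of 9 markers where the other 8 libraries reached 182 at most, and the highest sums of endothelial (424), pericyte (66.4) and stromal markers. Arrested library 1, the lowest in Kdr, Flt1 and Eng by both measures, had the lowest pericyte (26.3), stromal and smooth muscle sums. Some marker lists moved with the groups, in the annotated sum, where no smooth muscle, red cell or leukocyte marker passed the threshold. All 8 smooth muscle markers were above 0 for competent minus control (median 0.48) and below 0 for arrested minus control (median -0.44), with overlapping sums of 1618 to 1696 in control, 1392 to 2781 in competent and 881 to 2155 in arrested libraries. All 5 red cell markers were above 0 for arrested minus control (median 1.59, 4 at an unadjusted p under 0.05), with sums of 937 to 1500 in control, 747 to 3966 in competent and 2091 to 4842 in arrested libraries. The sum of 10 leukocyte markers was 39.6 to 59.4 in arrested libraries, below the 65.3 to 99.3 of the others. Of the 7 leukocyte markers tested, 3 lay above and 4 below 0 for arrested minus competent, and all 7 below 0 for arrested minus control. In exon coverage 1 of these, the myeloid integrin gene Itgam, was lower in arrested than in competent libraries, by 2.06 ± 0.31 on the log2 scale (limma adjusted p = 0.0424). It was 12.6, 15.4 and 13.9 in competent and 1.84, 3.39 and 2.69 in arrested libraries. In the annotated sum Itgam was 12.8, 12.3 and 3.92 FPKM in control, 19.0, 23.0 and 20.3 in competent and 2.51, 5.01 and 3.79 in arrested libraries. The controls lay between, with control library 3 within the arrested range. Competent minus control was 1.17 ± 0.40 and arrested minus control -1.05 ± 0.40 (limma adjusted p = 0.88 and 0.904). The gap in the leukocyte sum between competent and arrested libraries therefore rests mostly on Itgam. The part of tissue make-up in the levels of the 10 genes was not tested beyond the endothelial score. Of these lists, 1 of the 8 pericyte markers was at 0 in every library and none of the adipocyte or stromal markers.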

How the data were processed

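RNA of 9 uterus libraries was sequenced by the submitters. Per the submitters' processing notes, the authors aligned reads to mm9 with Bowtie 0.12.2 and made the deposited FPKM values, with interval ends, with Cufflinks. No Cufflinks version or setting was given in the sources used here. As coverage signal, the authors deposited the read depth per transcript, a fixed multiple of FPKM within a library (1.09 to 1.98 by library). One table lacked a header line and was read by column order.

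Gene levels were sums of FPKM over annotated transcripts, using GENCODE vM1 on NCBIM37 (Python 3.11.15, pandas 2.3.3, numpy 2.4.6, bedtools 2.31.1). Exon coverage was the depth over the union of a gene's annotated exons from annotated and assembled transcripts, divided by coverage per FPKM; it was chosen after seeing the data. A fit with limma 3.58.1 (R 4.3.3) on log2(value + 1), a scale that understates low genes, took group means of the 9 libraries with a mean trend, over genes with a mean of at least 1, with Benjamini-Hochberg adjustment within a contrast. The fit was tested on simulated data. The 10 genes and the lists were chosen with earlier results of these data known. From each pathway list, up to 4 genes of smallest p in any contrast were eligible to be named. Alternatives changed the pseudocount, filter, scaling, gene value, fit, replicate block and libraries.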

Additional observations from a re-analysis of the deposited data

How the results depend on the processing

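No gene of the 10 passed an adjusted p of 0.05 in any of the 834 combinations of gene, contrast and alternative setting that were run (limma). The lowest adjusted p, 0.0732, was that of Vegfa in exon coverage for arrested minus competent without arrested replicate 1. Leaving out each library in turn, the Vegfa difference in exon coverage stayed between -0.79 and -0.62 for competent minus control and between 0.45 and 0.72 for arrested minus competent, and that of Adm between -0.41 and -0.30 for competent minus control in the annotated sum. Exon coverage and every value made from it were chosen after seeing the data. Depth is unknown in reads and limits Angpt1, Flt1, Angpt2 and Vegfc most, which lie near 1 to 3 FPKM.

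The number of all genes called was unsteady; the cause was not tested except that settings leave out or add genes or libraries. For competent minus control it was 6, and it became 10 without a filter on low values, 3 with part-zero genes left out without use of the group labels, 2 with length-weighted coverage, 12 in the fit of 2 groups and 2 in exon coverage. For arrested minus control it was 7, and it became 1 with part-zero genes left out and 3 with the transcript of highest mean only. For arrested minus competent it was 18, and it became 11 with part-zero genes left out, 11 with the transcript of highest mean only, 33 in the fit of 2 groups and 61 in exon coverage. Leaving out 1 library at a time gave 4 to 16, 7 to 25 and 11 to 41 calls in the order of these contrasts, and 2 to 10, 8 to 25 and 13 to 112 in exon coverage; each arm then left with 2 libraries shares the spread of the others.

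With the replicate number as a block, calls were 1 for competent minus control and 4 for arrested minus competent, and in exon coverage 1, 5 and 8 over the 3 contrasts, where it had been 2, 8 and 61. No gene of the 10 gained a call under the block. Deviations of same-numbered libraries correlated at -0.0515 to 0.0958 in the annotated sum and at 0.0153 to 0.130 in exon coverage, and not every pair was above 0.1 in either measure, so the numbers were not taken as a pairing. In exon coverage all 9 same-numbered pairs were above 0 and 3 above 0.1, against 4 of 18 differently numbered pairs above 0, and the closest library of another group bore the same number in 13 of 18 cases (11 of 18 in the annotated sum). This is a hint from the data only, and the labels used here do not say whether same-numbered libraries share a source.

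Directions that turned, all of differences that never passed the threshold, were the following. With assembled transcripts added, competent minus control became -0.40 for Vegfc and 0.28 for Kdr, arrested minus control -0.045 for Vegfc, 0.063 for Flt1 and -0.25 for Nrp1, and arrested minus competent -0.24 for Angpt2. With exon coverage, competent minus control became -0.21 for Vegfc, and arrested minus control -0.14 for Vegfa, 0.20 for Angpt2 and -0.25 for Nrp1. With the transcript of highest mean only, Eng became 0.21 for competent minus control, Vegfa -1.09 and Angpt2 0.32 for arrested minus control, and Vegfa -0.74 for arrested minus competent. Length-weighted coverage gave Angpt2 0.22 for arrested minus control.

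Leaving out 1 library at a time, the ranges that crossed 0 were these. For competent minus control in the annotated sum they were -1.08 to 0.73 for Vegfa, -0.14 to 0.22 for Vegfc and -0.27 to 0.014 for Kdr, and in exon coverage -0.10 to 0.17 for Kdr, -0.33 to 0.00056 for Angpt2 and -0.13 to 0.14 for Nrp1. For arrested minus control in the annotated sum they were -0.49 to 1.61 for Vegfa, -0.91 to 0.059 for Kdr, -0.30 to 0.14 for Flt1, -0.42 to 0.21 for Angpt2, -0.10 to 0.27 for Adm, -0.17 to 0.49 for Nrp1 and -0.72 to 0.24 for Eng. In exon coverage that contrast ranged from -0.25 to 0.022 for Vegfa, -0.032 to 0.29 for Vegfc, -0.55 to 0.057 for Kdr, -0.27 to 0.51 for Angpt1, -0.10 to 0.27 for Adm and -0.63 to 0.17 for Eng. For arrested minus competent in the annotated sum they were -0.28 to 1.75 for Vegfa, -0.74 to 0.22 for Kdr, -0.0028 to 0.63 for Tek and -0.43 to 0.53 for Eng, and in exon coverage -0.55 to 0.058 for Kdr, -0.17 to 0.35 for Tek and -0.44 to 0.36 for Eng.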
